A study of Mus musculus with 103 samples.

Results

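Daily rhythms of liver transcripts were described in old mice kept on a calorie-restricted diet. The members are the 24 arrays whose titles name old mice and a calorie-restricted diet, set beside 79 arrays of the other groups of the series, and the rhythms were measured across 11675 genes. The mice were C57BL6/J, 83 to 97 weeks old by their labels (median 88 weeks), with 12 arrays labelled female and 12 labelled male, a label that the data did not bear out. Livers were taken at zeitgeber time (ZT, hours after lights on) 0, 4, 8, 12, 16 and 20 under 12 h of light and 12 h of dark, with 4, 3, 4, 5, 4 and 4 arrays at these times. They are compared with young restricted mice (32 arrays, 47 to 88 weeks, median 51), old mice on a normal diet (22 arrays, 84 to 93 weeks, median 88) and, for description, young mice on a normal diet (25 arrays, 23 to 57 weeks, median 52). All groups are labelled as 25 weeks on their diet, although 1 young normal-diet array is labelled 23 weeks old. The highest age among the young restricted arrays belongs to 1 array at ZT16 (replicate 5) whose title says young, and the title was followed. The degree of restriction and the hour at which restricted mice were fed are not given in the sources used here, so the diet and its meal time cannot be told apart. The labels number replicates without saying that each is a separate animal, so the p-values rest on variation among these arrays, which may be technical.

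The liver clock is a feedback loop of transcription. CLOCK, or its relative NPAS2, pairs with BMAL1 (gene Arntl) and binds E-box sequences to activate the Period and Cryptochrome genes, whose proteins then inhibit the pair. REV-ERB proteins act on Arntl through a second loop, and the PAR bZIP factors and their antagonist E4BP4 (gene Nfil3) pass time of day on to metabolic genes through D-box sequences. In the liver, feeding itself also drives daily changes, through insulin and glucagon, body temperature and the folding load of newly made proteins.

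In old restricted mice, 5070 of 11675 genes had a 24 h rhythm (43.4%; adjusted p under 0.05), and 5967 had an unadjusted p under 0.05. Values are log2 intensities, so 1 unit is a doubling. The amplitude is the height of a fitted 24 h cosine above its mean, the peak time is the top of that cosine, and adjusted p-values come from moderated F tests in limma with Benjamini-Hochberg adjustment over all 11675 genes. The median amplitude of the rhythmic genes was 0.24 and the quartiles were 0.17 and 0.35. The median standard error (SE) of a peak time was 0.898 h. Most rhythms were therefore small: 553 of the 5070 genes (10.9%) had a fitted peak over 2-fold above the trough, and 78 had an amplitude of at least 1. A test for any difference between the 6 times called 5986 genes (51.3%), of which 1274 had no 24 h call.

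The labelled sex was not seen in the sex-linked transcripts. Eif2s3y, a gene of the Y chromosome, had a median of 9.21 in the 12 old restricted arrays labelled female (8.61 to 9.83) and 9.22 in the 12 labelled male (8.77 to 9.55). Xist, the RNA of the inactive X chromosome, had medians of 4.31 (3.87 to 5.78) and 4.33 (3.86 to 4.66), so both sets overlapped for both genes. These genes thus did not tell the labelled sexes apart, and sex is given here only as labelled. Over the whole series Eif2s3y reached 10.1 in arrays labelled female and 13.1 in those labelled male. Which labels hold cannot be told from these values. Without the term for labelled sex 5109 genes were rhythmic, 1632 differed by diet, 0 by age and 1422 had a 12 h component, against 5070, 1549, 0 and 1414 with it.

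The labelled times were checked against the clock genes. The 19 clock genes called rhythmic placed each of the 24 arrays within 2 h of its label, with a median absolute difference of 0.7 h, although these genes' curves were fitted to the same arrays. The 3 ZT4 arrays were read at 2.6, 3.3 and 5.8 h, the widest set for 1 time. ZT4 replicate 2 stood apart in other cell types: its macrophage list averaged 9.08 where the next array had 8.0, its neutrophil list 7.68 where the next had 5.43, and its erythroid list 11.9 where the next had 10.7. Hepatocyte markers averaged between 11.7 and 12.0 in every array. Without ZT4 replicate 2, 5088 genes were rhythmic, 4865 of them (96% of the 5070) shared. In whole liver, fewer cells of a type and less RNA per cell cannot be told apart.

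Many clock genes had high amplitudes. Of 21 clock genes tested, 19 were rhythmic where 43.4% of all genes were. The others, Rora (amplitude 0.03, adjusted p = 0.652) and the kinase gene Csnk1e (0.06, adjusted p = 0.524), had groups that overlapped at their highest and lowest times. The smallest amplitude of the 19 was that of Btrc (0.16, adjusted p = 0.0157). Its call was lost without the arrays numbered 2 or 4 (adjusted p = 0.067 and 0.113) and by the rank test (0.0532). Nr1d1, Dbp and Csnk1d were not analysed here, and Bhlhe41 was left out for low signal.

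The activators were high at the end of the dark phase. Arntl, the gene of BMAL1, read 6.13, 6.28, 5.79 and 5.80 at ZT0, then 5.11, 4.87 and 4.76 at ZT4, and 4.66, 4.80, 4.59 and 4.38 at ZT8. It was lowest at ZT12 (4.55, 4.69, 4.49, 4.56 and 4.71), rose at ZT16 (5.68, 6.19, 5.56 and 6.05) and was highest at ZT20 (6.49, 6.20, 6.00 and 6.19). No ZT20 array overlapped a ZT12 array, and the fit gave a peak at ZT20.6 (SE 0.305 h) and an amplitude of 0.94 (SE 0.073; adjusted p = 8.67e-19). Clock peaked at ZT20.4, with an amplitude of 0.89. Npas2 was close to an on-off pattern: its 4 arrays at ZT20 read 7.45, 7.23, 6.43 and 7.19 and its 4 at ZT16 read 3.54, 3.99, 3.41 and 3.62. Its ZT20 mean was 12.4-fold above its ZT8 mean, the lowest.

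The repressors rose through the light phase in sequence. Per2, whose protein inhibits CLOCK and BMAL1, read 3.88, 4.12, 3.74 and 4.15 at ZT0 and 8.66, 8.34, 8.57, 8.48 and 8.86 at ZT12. That is 24.4-fold between the means, with no overlap, and the fit gave a peak at ZT12.8 and an amplitude of 2.29 (SE 0.17; adjusted p = 2.59e-19). Per3 peaked at ZT9.98 and Per1 at ZT10.7, the latter with 8.79, 8.49, 8.65 and 8.46 at ZT8 against 6.22, 6.02, 6.21 and 6.74 at ZT0. Ciart, which encodes a repressor of the same pair, peaked at ZT10.1, Bhlhe40 at ZT12.4 and Cry2 at ZT12.7. Cry1 came last, at ZT17.5: its arrays read 7.61, 7.64, 7.64 and 7.32 at ZT20 and 4.94, 4.14 and 4.15 at ZT4. Nr1d2, the gene of REV-ERB beta, peaked at ZT7.5 (8.58, 8.56, 8.67 and 8.62 at ZT8) and was 15.4-fold lower at ZT20 (4.51, 4.51, 4.66 and 4.95). Of the factors that act at D-boxes, Nfil3 peaked at ZT19.3 and Tef, a PAR bZIP factor, at ZT10.0. Among the genes that modify clock proteins or answer to them, the deubiquitinase Usp2 had its ZT8 mean 27.2-fold above its ZT0 mean and the mitotic kinase Wee1 15.7-fold.

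**Figure D1:**
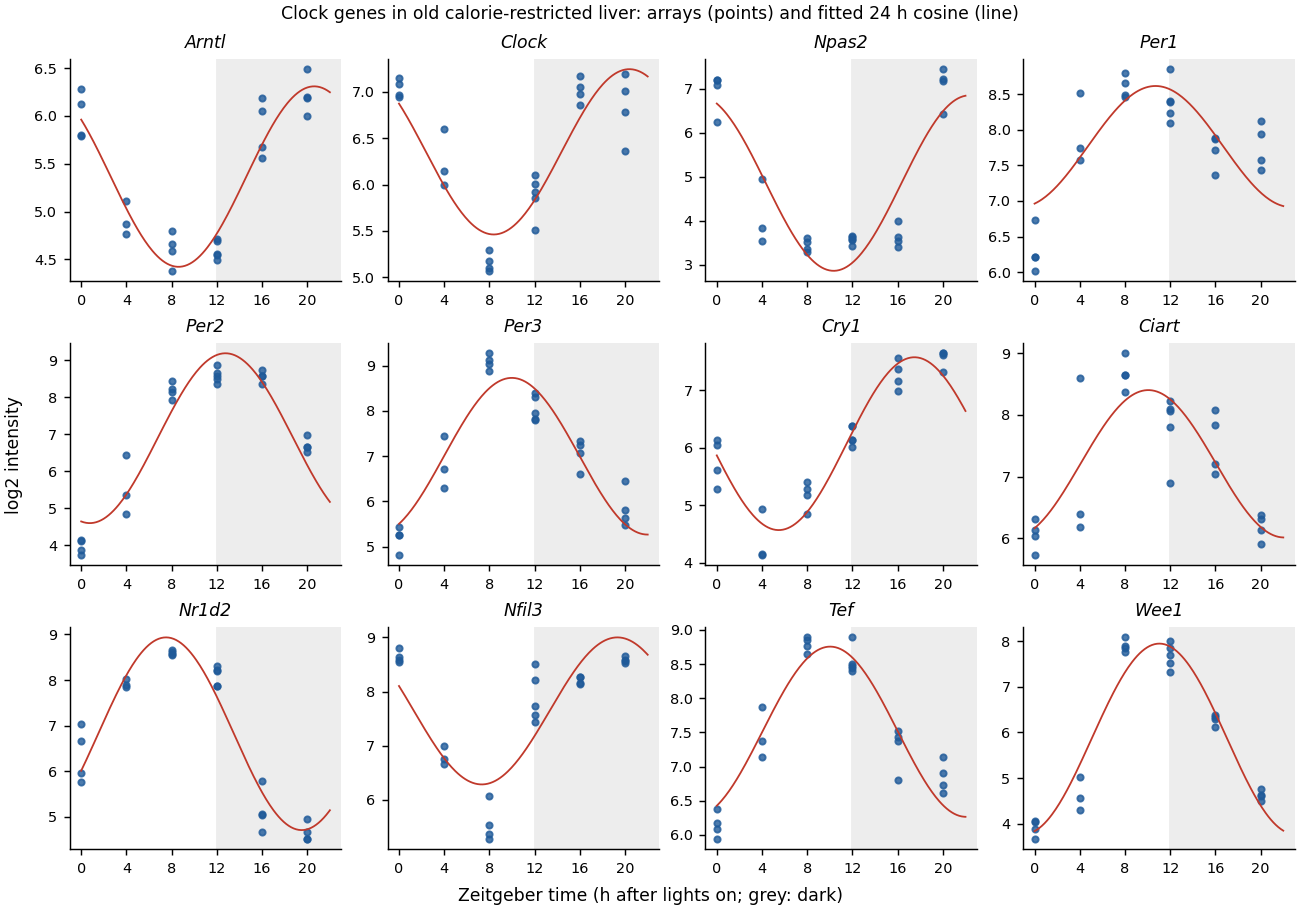
Log2 intensity (vertical axes) of 12 clock genes in each of the 24 arrays of old restricted liver (points) against zeitgeber time in hours (horizontal axes; grey, dark phase), with the fitted 24 h cosine (line). Arntl is high at ZT20 and ZT0, Per2 between ZT8 and ZT16, Nr1d2 at ZT8 and Cry1 at ZT20, and the Npas2 points at ZT16 (3.41 to 3.99) and ZT20 (6.43 to 7.45) depart from the cosine.

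The sequences that the clock factors bind were looked for in RefSeq promoters, 250 bases before to 50 after a start, on GRCm38.p6. Of the tested genes, 9400 had a promoter, with 11890 promoters among them. The stretches shown carry an E-box (CACGTG, a palindrome) or a D-box (TTANGTAA, searched on both strands) in capitals, run 5′ to 3′ on the gene's strand, and belong to genes of high amplitude that peaked between ZT9.98 and ZT17.5.
Per1, E-box (chr11:69098758-69098813, + strand): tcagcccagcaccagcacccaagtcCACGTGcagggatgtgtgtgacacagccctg
Ciart, E-box (chr3:95882314-95882369, - strand): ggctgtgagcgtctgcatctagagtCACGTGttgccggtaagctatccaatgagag
Ciart, 2 E-boxes nearer the start (chr3:95882256-95882311, - strand): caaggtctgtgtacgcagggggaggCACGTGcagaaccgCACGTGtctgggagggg
Tef, E-box (chr15:81811251-81811306, + strand): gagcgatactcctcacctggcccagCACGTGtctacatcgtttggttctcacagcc
Cry1, E-box (chr10:85185084-85185139, - strand): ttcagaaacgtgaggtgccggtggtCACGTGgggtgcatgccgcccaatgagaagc
Coq10b, E-box (chr1:55052667-55052722, + strand): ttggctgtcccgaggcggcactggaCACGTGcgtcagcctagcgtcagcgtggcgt
Coq10b, D-box (chr1:55052583-55052640, + strand): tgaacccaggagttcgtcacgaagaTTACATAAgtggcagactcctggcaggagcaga
Per3, D-box (chr4:151044838-151044895, - strand): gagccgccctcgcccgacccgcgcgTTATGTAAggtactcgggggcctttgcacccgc
Per3, D-box nearer the start (chr4:151044791-151044848, - strand): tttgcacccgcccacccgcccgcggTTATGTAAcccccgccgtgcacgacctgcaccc

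An E-box stood in a promoter of 11.38% of all tested genes that had one. The share was 15.91% (116 of 729) among rhythmic genes with peaks in the 4 h centred on ZT8 and 13.78% (81 of 588) in those centred on ZT12. It was 13.11% (124 of 946) for ZT20, 12.99% (86 of 662) for ZT4, 10.29% (53 of 515) for ZT16 and 9.7% (67 of 691) for ZT0. With an amplitude of at least 0.5 the shares were 19.48% (15 of 77) at ZT8 and 20.29% (14 of 69) at ZT12, with 11.03% (16 of 145) at ZT20, 8.51% (4 of 47) at both ZT4 and ZT16, and 8.33% (5 of 60) at ZT0. The D-box was rarer: 1.86% of all these genes held one. With an amplitude of at least 0.5 the share was 10.14% (7 of 69) for peaks around ZT12, Coq10b among them. At the same amplitude it was 1.3% (1 of 77) around ZT8, the window of Per3, and 4.14% (6 of 145) around ZT20. Other motifs searched on both strands were the REV-ERB response element, in 0.51% of all these genes and 0.65% of the rhythmic ones, the cyclic AMP response element TGACGTCA (3.21% and 3.82%) and the heat shock element (0.6% and 0.7%). A gene can hold several promoters and an E-box may overlap other motifs. These shares are descriptions of letters in a window, with no test, and a match is not a bound site.

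Rhythmic genes peaked at all times of day, and by the fitted cosine most often late in the dark phase. In the 4 h windows centred on ZT0, 4, 8, 12, 16 and 20 there were 865, 792, 905, 728, 638 and 1142 genes. The window around ZT20 thus held 22.5% and that around ZT16 12.6%. Of the 78 genes with an amplitude of at least 1, 29 peaked around ZT20 and 20 around ZT12. The light and dark phases held similar shares, 48.6% and 51.4%. Counting instead the time of the highest mean, ZT0 led with 1107 genes, before ZT8 (987), ZT16 (969), ZT20 (853), ZT12 (807) and ZT4 (347).

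**Figure D2:**
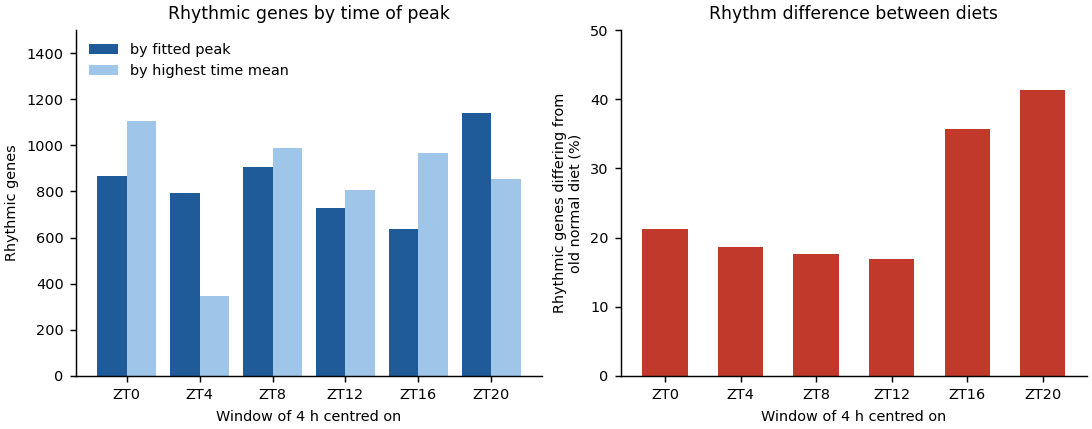
Left, number of rhythmic genes of old restricted liver (vertical axis) by the 4 h window of their peak (horizontal axis, zeitgeber time), taken from the fitted cosine (dark bars) or from the time of the highest mean (light bars); the ZT20 window holds 1142 genes by the cosine and ZT0 holds 1107 by the highest mean. Right, percent of the rhythmic genes of each window whose rhythm differed from that of old mice on the normal diet, 41.3% at ZT20 and 35.7% at ZT16.

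Sphk2, a sphingosine kinase, had the highest amplitude of all genes tested, 2.45 (SE 0.17), a 29.7-fold fitted difference between peak and trough. Its arrays read 6.25, 5.90, 6.05 and 6.36 at ZT0, 8.63, 8.79 and 9.60 at ZT4, and 10.25, 9.80, 10.38 and 10.38 at ZT8. The 5 ZT12 arrays lay between 8.46 and 9.64, and the later ones read 5.63, 5.90, 5.85 and 5.83 at ZT16, and 5.69, 5.88, 6.11 and 5.78 at ZT20. Sphk2 was high from ZT4 to ZT12, highest at ZT8, and low at ZT16, ZT20 and ZT0, with no overlap between these 2 sets of times. Clock, sex-chromosome and predicted genes were left out of the rankings by peak window, here and below. The next amplitudes around ZT8 were then those of Upp2, a uridine phosphorylase (1.36), and Ppp1r3g, which directs a phosphatase to glycogen (1.34). Lpin1, the phosphatidate phosphatase lipin 1, had 1.26.

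Around ZT12 the clock genes Per2 (2.29), Wee1 (2.08) and Usp2 (2.03) had higher amplitudes than the genes ranked here. Outside the clock genes the highest belonged to the inducible chaperone Hspa1b (1.83) and Coq10b, a coenzyme Q binding protein (1.51). The acyl-CoA thioesterase Acot3 (1.26) and the endothelial lipase gene Lipg (1.20) came next. Coq10b read 8.96, 8.84, 8.65 and 8.76 at ZT8 and 4.76, 5.33, 5.28 and 5.86 at ZT0, 11.3-fold apart between means. Around ZT16 stood Cdkn1a, the cell cycle inhibitor p21 (1.84), Hsp90aa1 (1.38), periplakin (Ppl, 1.18) and lipocalin 2 (Lcn2, 1.12). Cdkn1a read 9.85, 10.41, 10.40 and 10.06 at ZT16 and 6.87, 6.82, 6.42 and 6.28 at ZT8, 12-fold apart.

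Of the 4 highest amplitudes around ZT20, 3 were those of solute carriers. Slc30a10, a manganese exporter, had an amplitude of 2.14 (SE 0.16) and read 8.44, 8.39, 7.93 and 8.27 at ZT20 against 4.80, 4.50, 3.76, 4.48 and 4.99 at ZT12. Slc41a2, a magnesium transporter, had 1.57, and Slc45a3, a sugar transporter, 1.55. Ddc, the decarboxylase of aromatic amino acids, had 1.54, with 10.03, 10.10, 9.75 and 9.87 at ZT16 and 7.04, 6.63, 7.47 and 6.93 at ZT8. Around ZT0 the claudin gene Cldn1, a component of tight junctions, had an amplitude of 1.99, and its arrays read 8.81, 8.81, 8.67 and 8.30 at ZT0 against 5.03, 4.60, 5.90 and 4.55 at ZT8. Serpinb1a, a protease inhibitor (1.35), Mpzl1 (1.28) and the sulfide-oxidising enzyme Ethe1 (1.06) followed. Around ZT4 came Arrdc3, an arrestin-domain protein (1.15), the ubiquitin ligase subunit Fbxo21 (1.11), the sterol exporter subunit Abcg8 (1.09) and Depp1 (1.04). For Arrdc3 the 3 ZT4 arrays did not agree: 2 read 9.10 and 9.41 and the third, the array whose clock genes read 5.8 h, 6.98.

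Most of the listed protein folding genes were rhythmic. Of 13 genes of the heat shock response 12 were called, where 43.4% of all genes were. All 12 peaked within 4 h of ZT16.0, the median peak of the list, as did 29.6% of all rhythmic genes. Here and for the lists below, the window was centred on the median peak of the list itself. That choice favours the list over all rhythmic genes, and the closeness of peaks was not tested. Hsp90aa1, the inducible cytosolic HSP90, read 7.94, 8.64, 8.30 and 8.23 at ZT0, 7.50, 8.07 and 7.43 at ZT4, and 8.09, 7.74, 7.35 and 7.49 at ZT8. It read 8.15, 8.56, 8.08, 8.85 and 8.81 at ZT12, then 10.44, 10.26, 10.49 and 10.26 at ZT16 and 9.78, 9.36, 9.60 and 9.83 at ZT20. Every ZT16 and ZT20 array was above every array of the other times, and the ZT16 mean was 6.48-fold above the ZT4 mean. The small chaperone Hspb1 was 7.2-fold higher at ZT16 than at ZT8, and Stip1, which links HSP70 to HSP90, 2.82-fold higher at ZT16 than at ZT0. The earliest peaks of the list were those of the HSP70 gene Hspa1b and the J-protein gene Dnajb1, both at ZT13.1, and of Hspa8 at ZT13.8. Other members of these families came later, the J-protein gene Dnaja1 at ZT15.5 and the HSP70 relative Hspa4 at ZT16.95. Hspa1b varied within times, reading 7.32, 8.01, 7.87, 8.95 and 9.41 at ZT12 and 4.42, 5.08, 5.39 and 4.66 at ZT0. The mitochondrial co-chaperone Hspe1 was the member that was not called (amplitude 0.06, adjusted p = 0.436). Cirbp, an RNA-binding protein induced by mild cold, had the opposite phase: it read 6.39, 6.29, 7.05 and 6.37 at ZT8 and 4.69, 4.35, 4.24 and 4.47 at ZT16, with a peak at ZT4.98 and an amplitude of 1.01 (SE 0.12; adjusted p = 4.93e-11).

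In the endoplasmic reticulum, 18 of 20 folding and stress genes were rhythmic, where 43.4% of all genes were. Of these 18, 15 peaked within 4 h of ZT18.8, as did 37.1% of all rhythmic genes. By the rank test 13 of the 20 were called, and 3802 of all 11675 genes. Manf was not called by that test (adjusted p = 0.151). Hyou1, an HSP70-like chaperone of this compartment, had an amplitude of 1.14 and peaked at ZT18.8. Creld2 read 11.74, 11.08, 11.96 and 11.09 at ZT16 and 8.29, 9.40, 8.46 and 8.80 at ZT0, and Manf 11.14, 10.34, 11.49 and 10.61 at ZT16 and 8.84, 8.48, 8.68, 9.01 and 9.06 at ZT12. Both encode secreted proteins of the unfolded protein response, and both had ZT16 arrays above all of their ZT12 arrays. The main chaperone Hspa5 (BiP) peaked at ZT18.5 (0.64), and the disulfide isomerases Pdia4 and Pdia6 at ZT21.2 and ZT22.2. Herpud1, a component of the degradation pathway, peaked apart from these at ZT10.0. Xbp1 (adjusted p = 0.0553) and Dnajb9 (0.0761) were not called.

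Proteasome genes peaked later. Of 33 proteasome genes 25 were rhythmic, with a median peak at ZT1.1 and small amplitudes (median 0.20). Psmd14, the deubiquitinase of the lid, had the largest, 0.57 (SE 0.055), at ZT22.0, and Psmd1 had 0.32 at ZT22.3. The genes of the immunoproteasome differed among themselves: Psmb10 peaked at ZT8.03, and Psmb8 (adjusted p = 0.994) and Psmb9 (0.892) were not called. Genes of ribosome biogenesis peaked earlier: 12 of 14 genes were rhythmic, with a median peak at ZT12.7, among them nucleophosmin (Npm1, 0.42, ZT9.77), Nop2 (0.27, ZT12.8) and the polymerase I subunit Polr1a (0.31, ZT12.7). For the ribosomal proteins themselves 15 of 58 were called, a smaller share than the 43.4% of all genes, and 13 of the 15 lay within 4 h of ZT11.5 (29.3% of all rhythmic genes did). Of 75 genes of oxidative phosphorylation 18 were called, 9 of them in the window around ZT4.

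**Figure D3:**
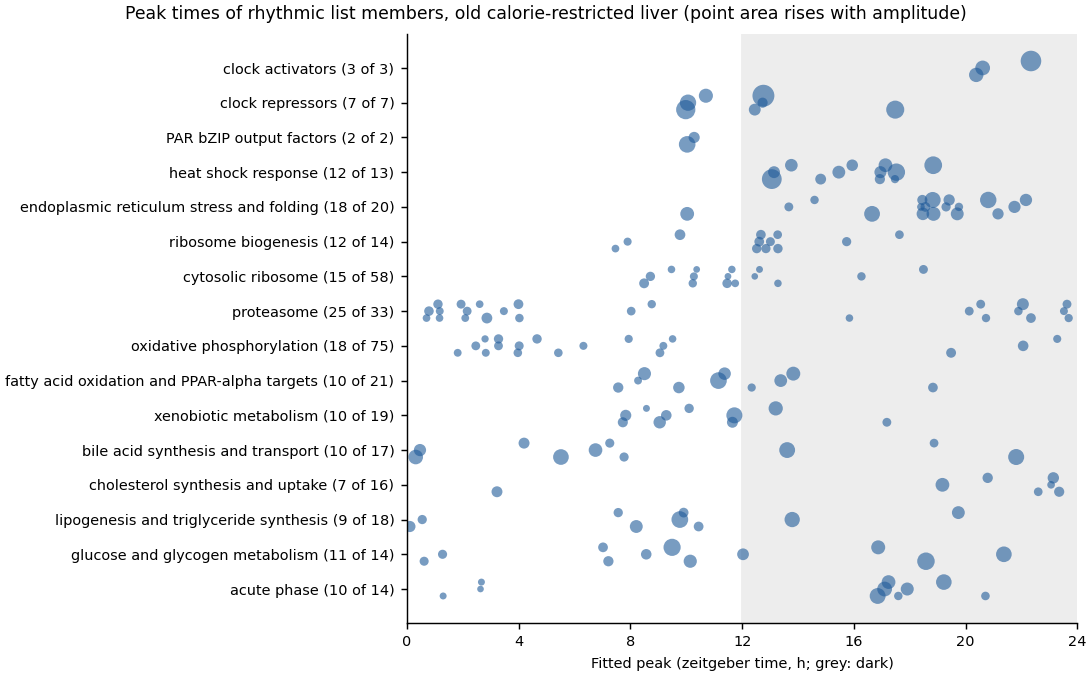
Peak time (horizontal axis, zeitgeber time in hours; grey, dark phase) of each rhythmic member of 16 gene lists (vertical axis, with the number rhythmic of the number tested) in old restricted liver; the area of a point rises with its amplitude. Heat shock genes lie around ZT16.0, most folding genes of the endoplasmic reticulum around ZT18.8, proteasome genes around ZT1.1 and ribosome biogenesis genes around ZT12.7.

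Carbohydrate genes had some of the clearest rhythms. Of 14 genes, 11 were rhythmic, at different phases, where 43.4% of all genes were rhythmic. G6pc, the glucose-6-phosphatase that releases glucose from the liver, was near a constant high level except in the light: it read 12.47, 11.96, 11.93 and 12.32 at ZT0, 10.90, 10.06 and 10.73 at ZT4, and 9.23, 9.05, 9.07 and 8.85 at ZT8. At ZT12 it was back at 12.24, 12.10, 11.97, 12.13 and 11.86, and at ZT16 and ZT20 all 8 arrays lay between 12.01 and 12.43. The ZT8 mean was 8.82-fold below the ZT20 mean. The liver glycogen synthase Gys2 peaked at ZT10.1 (0.72) and Ppp1r3b and Ppp1r3c, which direct a phosphatase to glycogen, at ZT16.9 (0.83) and ZT21.4 (1.08). Glycogen phosphorylase (Pygl) peaked at ZT0.612 with an amplitude of 0.25, and the glucose transporter Slc2a2 at ZT7.21 with 0.37. Pck1, the enzyme of the first committed step of gluconeogenesis, was not called (amplitude 0.20, adjusted p = 0.514), and its arrays at ZT0 (8.90, 7.93, 8.68 and 7.59) overlapped those at ZT8 (8.15, 7.41, 8.36 and 7.21).

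Of 14 genes of insulin, FOXO and fasting signals, 9 were rhythmic, where 43.4% of all genes were. By the rank test 4 of the 14 were called, and 3802 of all 11675 genes. Sesn3, a FOXO target, peaked at ZT22.4 (0.45), Trib3 at ZT3.75 (0.52), Igf1 at ZT12.6 (0.39) and Foxo1 at ZT10.3 (0.17). Igfbp1, a binding protein that insulin lowers, peaked at ZT20.7 (0.66; adjusted p = 0.0222), and its call was lost in 11 of the alternatives at the same threshold, with adjusted p from 0.0521 without ZT8 replicate 2 to 0.471 in the arrays labelled male alone; without ZT8 replicate 4, ZT8 replicate 1 or ZT20 replicate 3 it was 0.0541, 0.0781 and 0.0577. All 5 tested sirtuins, NAD-dependent deacylases, were rhythmic in limma, where 43.4% of all genes were, and 2 of the 5 by the rank test. Their amplitudes were small, between 0.18 (Sirt7) and 0.40 (Sirt1, ZT11.2). Sirt3 lost its call without the arrays numbered 3 (adjusted p = 0.0663) and Sirt5 without those numbered 1 (0.0579), and both by the rank test (0.0508 and 0.051). In NAD metabolism 8 of 12 were rhythmic, and kynureninase (Kynu, 1.16, ZT20.0) and the nicotinamide riboside kinase Nmrk1 (1.13, ZT13.0) led.

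Lipid genes were mixed, and the shares called were near or somewhat above the 43.4% of all genes: 47.6% for fatty acid oxidation, 50% for lipogenesis, 43.8% for cholesterol synthesis and 58.8% for bile acid genes. Fatty acid oxidation and PPAR-alpha targets had 10 of 21 rhythmic, 9 of them within 4 h of ZT11.2 (29.7% of all rhythmic genes were): Ppara itself at ZT8.5 (0.71), Cpt1a, which admits fatty acids to mitochondria, at ZT7.56 (0.38), and the thioesterases Acot3, Acot1 and Acot2 at ZT11.2, ZT13.8 and ZT13.4. Lipogenesis had 9 of 18, with Thrsp (1.03) at ZT13.8 and the citrate lyase Acly (0.68) at ZT19.7, while fatty acid synthase (Fasn, adjusted p = 0.435) and Scd1 (0.54) were not called. Of 16 cholesterol synthesis genes 7 were called, 6 of them within 4 h of ZT23.1 (38.3% of all rhythmic genes were). Sc5d (0.80, ZT19.2) had the largest amplitude. By the rank test 4 of the 16 were called, and in limma 6 without ZT4 replicate 2. Cyp51 (adjusted p = 0.0393) lost its call without the arrays of any 1 replicate number (adjusted p = 0.0518 to 0.208). Bile acid genes had 10 of 17 rhythmic. Hsd3b7, an early enzyme of bile acid synthesis (0.93), and the canalicular export pump Abcb11 (0.60) peaked at ZT0.31 and ZT0.462, Cyp8b1, the sterol 12-hydroxylase, at ZT21.8 (1.14), and the sterol exporter subunits Abcg5 and Abcg8 at ZT6.75 and ZT5.51.

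Detoxification genes were called about as often as genes in general. Of 19 xenobiotic genes 10 were rhythmic (52.6%, against 43.4% of all genes), 9 of them within 4 h of ZT9.7, as were 32.8% of all rhythmic genes, among them Alas1, the first enzyme of heme synthesis (1.15, ZT11.7), the monooxygenase Fmo5 (0.87, ZT13.2) and Cyp2a5 (0.45, ZT11.7). Cyp3a11 was not called (adjusted p = 0.391). Of 10 glucocorticoid targets 8 were called, 6 within 4 h of ZT11.2 (29.7% of all rhythmic genes were), and without ZT4 replicate 2 all 10 were. Acute phase genes had 10 of 14 rhythmic: ceruloplasmin (Cp, 1.08, ZT19.2), Lcn2 and the serum amyloid genes Saa1 (0.96) and Saa2 (0.80), at ZT17.1 and ZT17.2. In these 3 the spread was wide, and Lcn2, Saa1 and Saa2 lost their calls without the arrays numbered 1 (adjusted p = 0.0647, 0.186 and 0.0754). In iron metabolism, Hfe (0.89, ZT19.8) and the transferrin receptor Tfrc (0.87, ZT19.0) were rhythmic, as was the iron hormone hepcidin (Hamp, 0.26, ZT21.2; adjusted p = 0.0064, and 0.0543 without the arrays numbered 2).

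The remaining lists varied in their share of calls. Of 7 cell cycle genes 0 were called in limma (0 at an unadjusted p under 0.05, and 1 by a rank test), and 3 were called without ZT4 replicate 2, the array with the highest macrophage and neutrophil lists. Of 10 immediate early genes 1 was called, Fos, and not when the old restricted arrays were fitted alone (adjusted p = 0.0617) or by the rank test (0.635). For markers of other liver cells, a gene that was not called was not thereby shown to be flat. Called were 2 of 9 macrophage genes, 1 of 3 B and plasma cell genes and 3 of 6 of the sinusoidal endothelium. So were 2 of 6 of stellate cells and 1 of 4 of cholangiocytes, where 43.4% of all genes were. Several of these calls were near the threshold: at the same threshold Stab2 lost its call in 21 of the alternatives (10 of them 1 array left out), Clec4f in 13 (5), Cd79b in 8 (2), Col1a1 in 7 (3) and Oit3 in 6 (1). These single arrays were ZT0 replicates 3 and 4, ZT4 replicates 2 and 3, ZT12 replicates 3 and 5 and ZT16 replicates 1 to 4 for Stab2 (adjusted p up to 0.135), and ZT0 replicates 3 and 4, ZT8 replicate 1 and ZT12 replicates 3 and 5 for Clec4f (up to 0.121). They were ZT4 replicate 2 and ZT20 replicate 4 for Cd79b (up to 0.171), ZT8 replicates 1 and 3 and ZT20 replicate 2 for Col1a1 (up to 0.0974), and ZT16 replicate 2 for Oit3 (0.0517). For T and NK cells limma called 0 of 5 (1 at an unadjusted p under 0.05, 0 by the rank test) and for neutrophils 0 of 3 (0 and 0). The macrophage list had 5 rhythmic genes without ZT4 replicate 2, and the B and plasma cell list 0. Further lists with their counts were polyamine and one-carbon metabolism (9 of 12, and 7 without that array), amino acid and urea metabolism (7 of 13, led by Otc and Hal), autophagy (7 of 14, led by Bnip3), acetyl-CoA metabolism (5 of 9, led by Acot12), NRF2 targets (3 of 8, led by Srxn1) and hepatocyte markers (3 of 7). Of the markers of erythroid cells 1 of 2 was called (Alas2), and of exocrine pancreas 1 of 2 (Cela1), while the 1 adipocyte gene, Retn, was not called (adjusted p = 0.262). Calls in these cell type lists were beside list means that ranged across arrays from 6.41 to 9.08 for macrophages, 4.00 to 7.68 for neutrophils and 4.26 to 5.03 for T and NK cells, and the part of cell numbers in any rhythm was not tested.

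A 12 h component added to the 24 h curve was called for 1414 genes (12.1%); 1010 of these also had a 24 h call and 404 did not. With samples every 4 h such a component rests on 3 times per cycle, and a curve that is not a cosine has one too. The pattern of G6pc, flat and high except at ZT4 and ZT8, gave a 12 h amplitude of 0.88 (SE 0.094; adjusted p = 4.73e-10). Nfil3 was similar, with a 12 h amplitude of 0.71 (adjusted p = 6.77e-10): its ZT8 arrays read 6.08, 5.54, 5.38 and 5.28 and the 8 arrays of ZT0 and ZT20 lay between 8.52 and 8.80. Net1, an activator of the GTPase RhoA, was 3.75-fold lower at ZT8 than at ZT0, with a 12 h amplitude of 0.54 (adjusted p = 4.73e-10). Folding genes contributed 12 of 20 in the endoplasmic reticulum and 5 of 13 in the heat shock list, the proteasome 13 of 33, and cholesterol synthesis 8 of 16, among them Stard4 (0.54; adjusted p = 3.66e-05) and Msmo1 (0.67), which had no 24 h call.

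The highest 12 h amplitude was that of Pdk4, the kinase that inhibits pyruvate dehydrogenase (1.15, SE 0.22; adjusted p = 0.000561). It had no 24 h call (adjusted p = 0.489). Its ZT12 arrays ranged widely, 4.98, 8.50, 6.36, 7.78 and 4.09, while all 4 at ZT8 lay between 3.81 and 4.01. Cyp7a1, the rate-limiting enzyme of bile acid synthesis, had 2 high times: it read 9.63, 9.85, 9.43 and 9.59 at ZT8 and 9.56, 9.89, 10.50 and 9.86 at ZT16, against 7.14, 7.24, 9.30, 8.85 and 8.91 between them at ZT12 and 5.95, 6.43, 7.74 and 6.27 at ZT0. Its 12 h amplitude was 1.07 (SE 0.24; adjusted p = 0.00385) and the call was lost without the arrays numbered 1 (adjusted p = 0.114). Lpin1 was highest at ZT8 (9.57, 9.83, 9.53 and 8.90), with 8.03 to 9.32 at ZT4 and 7.31 to 9.51 at ZT12. Its mean was higher at ZT20 (8.14) than at ZT16 (7.29). The arrays of these times overlapped, with 8.90, 8.74, 6.69 and 8.21 at ZT20 and 6.25, 7.21, 7.41 and 8.30 at ZT16. Lpin1 was lowest at ZT0 (5.46, 5.10, 5.97 and 5.82). Its 12 h call was lost without the arrays numbered 1 or 2 (adjusted p = 0.0743 and 0.182). Zpr1, a zinc finger protein, had 0.91 (adjusted p = 0.000547) and the immediate early gene Fos 0.88 (adjusted p = 0.00438). The 12 h call of Fos was lost without the arrays numbered 2 (adjusted p = 0.1). Bcl6, a repressor, had 0.96 (adjusted p = 0.0278), a call lost in 9 of the alternatives at the same threshold, among them without ZT20 replicate 3 (adjusted p = 0.0636), ZT20 replicate 4 (0.0581), ZT8 replicate 4 (0.0508) and ZT8 replicate 3 (0.0523).

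**Figure D4:**
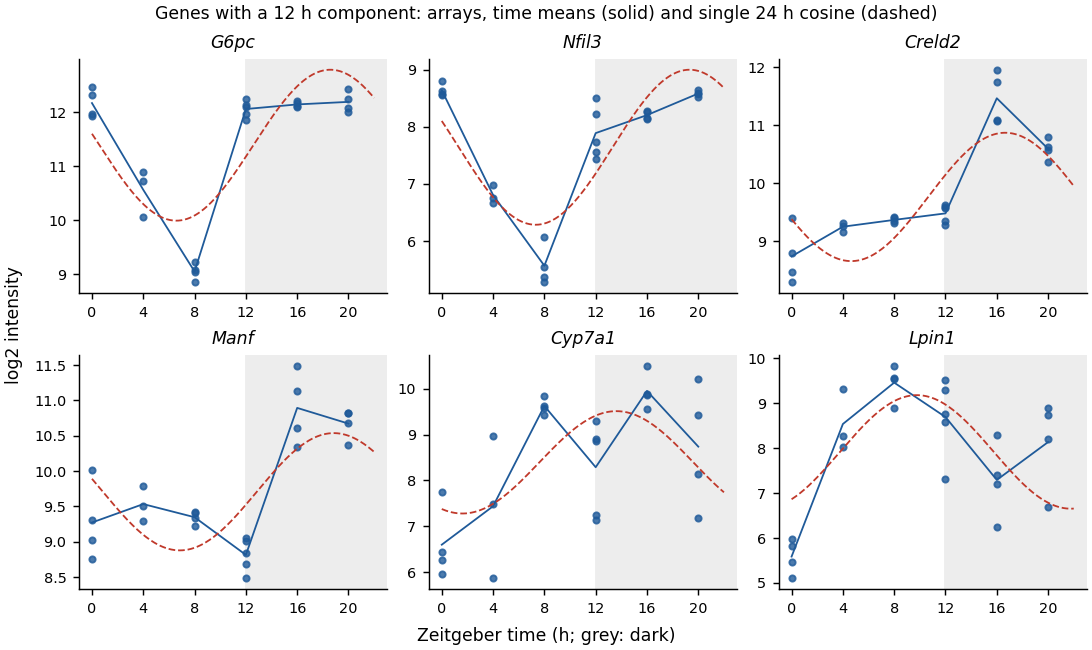
Log2 intensity (vertical axes) of 6 genes with a 12 h component in each array of old restricted liver (points) against zeitgeber time in hours (horizontal axes; grey, dark phase), with the means of each time (solid line) and the single 24 h cosine (dashed). G6pc and Nfil3 are lowest at ZT8, Creld2 and Manf are high at ZT16 and ZT20, and Cyp7a1 is high at ZT8 and ZT16.

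Age was asked about by setting the old restricted arrays against those of young restricted mice. In limma 0 of 11675 genes passed the test of a difference in 24 h rhythm (0%), and 536 (4.59%) had an unadjusted p under 0.05. By the same test, 49.5% of all genes were rhythmic in young restricted mice, 29.3% in old and 31.4% in young mice on the normal diet. Of the genes rhythmic by call, 4117 were shared by both restricted groups, 81.2% of those of old and 71.3% of those of young restricted mice. Among these the peaks differed by a median of -0.307 h (old minus young), and 88% lay within 2 h. For Arntl the difference in amplitude, old minus young, was -0.12 (95% interval -0.31 to 0.08) and that in peak time 0.19 h (-0.564 to 0.944 h). For Per2 they were 0.27 (-0.19 to 0.72) and -0.41 h (-1.25 to 0.425 h), and for Cry1 -0.12 (-0.39 to 0.15) and -0.656 h (-1.29 to -0.0208 h). These intervals do not show that the rhythms were alike, only how far apart they may be.

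The smallest p among clock genes was that of Noct, the phosphatase nocturnin (unadjusted p = 0.000387, adjusted p = 0.646). Its amplitude was 0.43 in old and 1.24 in young restricted mice, a difference of -0.80 (-1.20 to -0.41). The means of Noct in old mice ran from 9.27 at ZT0 to 10.25 at ZT8, and in young mice from 6.90 to 9.99 at the same times, so the groups were closest at ZT8 and farthest apart at ZT0. The 4 old restricted arrays at ZT0 read 9.32, 9.60, 8.90 and 9.26. The rhythm of Noct in old restricted mice was itself near the threshold (adjusted p = 0.0425). That call was lost in 20 of the alternatives at the same threshold, including the omission of any 1 of 12 arrays: ZT0 replicates 1, 3 and 4, ZT4 replicate 2, ZT8 replicates 1 to 3, ZT12 replicates 1, 3, 4 and 5 and ZT20 replicate 1. Adjusted p then ran from 0.0503 without ZT4 replicate 2 to 0.109 without ZT0 replicate 3.

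Diet was asked about by setting the old restricted arrays against old mice on the normal diet. The 24 h rhythm differed for 1549 of 11675 genes (13.3%), and 3225 had an unadjusted p under 0.05. The amplitude was larger under restriction for 1215 of the 1549 (78.4%) where it was for 57.6% of all genes tested. By call, 779 of the 1549 were rhythmic under restriction only, 201 on the normal diet only and 533 in both, 290 of these with peaks over 4 h apart. The genes that differed were spread unevenly over the day: of the genes rhythmic under restriction, 41.3% of those peaking around ZT20 and 35.7% around ZT16 differed, and 16.9% to 21.2% in the other windows, where the rhythm call and the difference use the same arrays.

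Of 15 clock genes rhythmic on both diets in old mice all peaked earlier under restriction, by a median of 1.77 h. In 14 the amplitude was larger, as it was in 66% of all genes rhythmic on both diets. Arntl peaked 2.24 h earlier (95% interval 1.27 to 3.21 h; adjusted p = 0.00144), Clock 2.85 h (1.40 to 4.30 h; adjusted p = 0.000598) and Cry1 1.82 h (0.873 to 2.76 h; adjusted p = 0.000208). Per2 peaked 0.821 h earlier, with an interval from 2.13 h earlier to 0.489 h later, and had its difference in amplitude, 2.29 against 1.26 (adjusted p = 0.00384). Per1 (adjusted p = 0.963), Cry2 (0.683), Hlf (0.638), Usp2 (0.296), Ciart (0.169) and Npas2 (0.154) did not pass. Of all genes rhythmic on both diets, 1959 in number (38.6% of those of restricted and 57.2% of those of normal-diet old mice), the median peak was 1.61 h earlier, and 48.1% of the peaks lay within 2 h.

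The smallest p-values of the diet comparison belonged to chaperone genes and genes with the same or the opposite phase. Hsp90aa1 led (adjusted p = 2.25e-10), with an amplitude of 1.38 under restriction and 0.36 on the normal diet (difference 1.02, 95% interval 0.73 to 1.30). On the normal diet its arrays read 8.88, 8.52, 8.88 and 8.60 at ZT12, the lowest time, and 10.13, 9.11 and 9.43 at ZT20, the highest. Restricted arrays were thus lower than normal-diet ones at ZT4 and ZT8 (means 7.67 and 7.67 against 9.22 and 9.03) and higher at ZT16 (10.36 against 9.10). Stip1 (adjusted p = 2.17e-08) had amplitudes of 0.80 and 0.23, and Ahsa2, related to the activator of HSP90 (1.07e-08), 0.53 and 0.20. Hikeshi, which carries HSP70 into the nucleus (1.18e-08), had 0.44 and 0.16, and Ube2n, a ubiquitin-conjugating enzyme (2.64e-08), 0.69 and 0.06. Memo1 (2.64e-08) had 0.75 and 0.25. In antiphase to these were tropomyosin 3 (Tpm3; adjusted p = 1.07e-08), which peaked at ZT5.63, and the RNA-binding protein Hnrnpk (3.8e-08), at ZT4.45. Hnrnpk read 10.02, 10.24, 10.39 and 10.24 at ZT8 and 9.41, 9.47, 9.39 and 9.49 at ZT16 under restriction, and on the normal diet between 9.45 and 10.06 at all times.

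**Figure D5:**
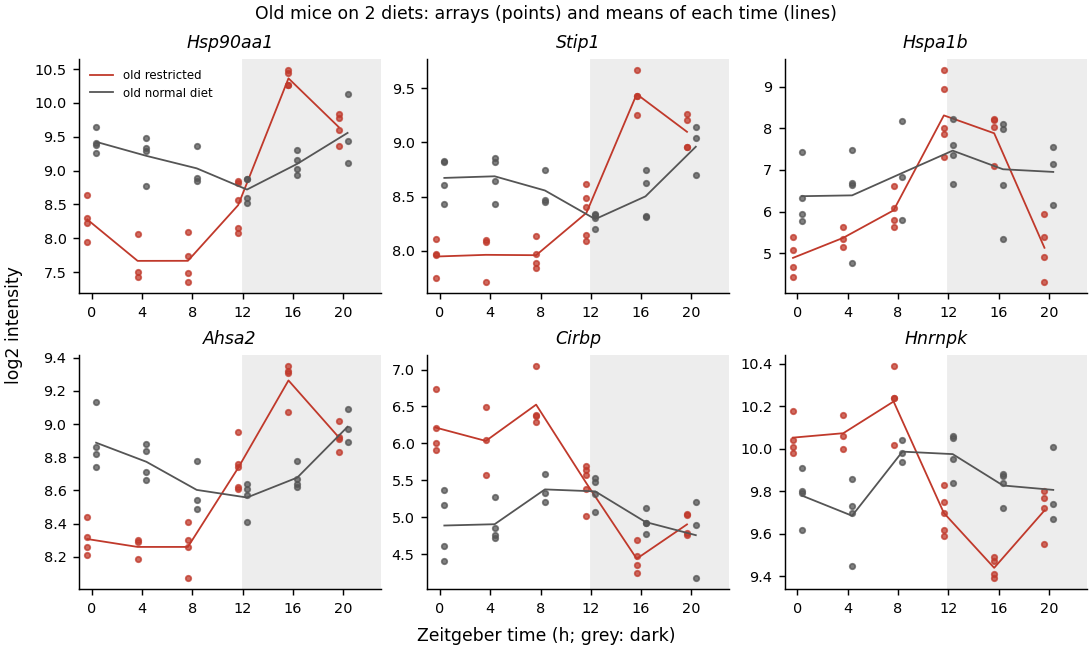
Log2 intensity (vertical axes) of 6 genes in old restricted and old normal-diet liver against zeitgeber time in hours (horizontal axes; grey, dark phase); points are arrays, set slightly apart by diet, and lines join the means of each time. Hsp90aa1 spans 7.35 to 10.49 under restriction and 8.52 to 10.13 on the normal diet, and Cirbp falls to 4.24 at ZT16 under restriction from 7.05 at ZT8.

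Of the 13 heat shock genes 11 differed by diet, all 11 with the larger amplitude under restriction, and of the 20 folding genes of the endoplasmic reticulum 15 differed, 14 of them so, where 13.3% of all genes differed. Cirbp differed too (adjusted p = 3.48e-05; amplitudes 1.01 and 0.31). In glucose metabolism 7 of 14 differed, all larger under restriction: G6pc had amplitudes of 1.40 and 0.14 (adjusted p = 2e-05), with normal-diet arrays of 11.96, 11.23 and 12.17 at ZT8, all above the 4 restricted arrays of that time. Ppp1r3b had 0.83 and 0.03 (adjusted p = 2.01e-05). For cholesterol synthesis 8 of 16 differed, 3 of them with the larger amplitude under restriction, Sc5d among them (0.80 and 0.53; adjusted p = 4.6e-06). For lipogenesis 8 of 18 differed and 2 were larger under restriction: Acly (0.68 and 0.55) and Elovl5 (0.27 and 0.09). Fasn (0.22 and 0.62), Acaca (0.25 and 0.46) and Acacb (0.23 and 0.52) had the larger amplitudes on the normal diet. Of the proteasome genes 10 of 33 differed, 8 of them larger under restriction.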

How the data were processed

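RNA of whole liver was extracted with TRIzol, amplified from 25 ng and hybridised to Affymetrix mouse arrays, per the labels' protocols. The authors deposited log2 intensities for 21261 probe sets (values -1.28 to 14.2). The submitters' processing notes name RMA, without a version. Gene symbols came from the platform's annotation table (15869 with 1 symbol, 225 with several, 5167 with none; 153 gene IDs were not matched), and the probe set of highest mean stood for its gene. The lowest 25% of 15567 genes by mean (below 4.139) were left out, so 11675 were tested.

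With limma 3.58.1 in R 4.3.3, 1 model of all arrays of the series gave every group its own mean, 24 h cosine and sine, and adjusted for labelled sex (eBayes with trend). Moderated F tests were made of the old restricted rhythm, of its differences from the young restricted and old normal-diet rhythms, of added 12 h terms, and of the 6 time means. P-values were adjusted by Benjamini-Hochberg with a threshold of 0.05. SE of amplitude and peak time and 95% intervals came from the delta method. The fits were tested on simulated data. Array number limits the precision, and signal over background was not measured here.

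The named genes were the clock genes, the 4 of highest amplitude in each peak window and the 8 of smallest p against the normal diet. To these came the 6 of highest 12 h amplitude and up to 4 rhythmic members of each list by amplitude. Predicted and sex-chromosome genes were left out of the picks by peak window, p and 12 h amplitude. Clock genes were left out of those by peak window and 12 h amplitude. The picks from lists had no such limits. Net1 and further list members (such as Hspa8, Fasn, Pck1 and Xbp1) fall outside all these picks. They and the genes whose array values are printed were chosen after their values were seen. The members, lists and tests were chosen with earlier results of these data known. The lists say nothing independent of those. Both comparisons use the same 24 old restricted arrays. Alternatives tried were another normalization, centring, no filter, the mean of probe sets, settings of eBayes, own arrays only, no sex term, 1 sex, a stricter threshold, an amplitude minimum, a rank test with 12 lags, a replicate block, and omission of each array or number.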

Additional observations from a re-analysis of the deposited data

Results flagged for a closer look

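In 135 sets of 4 or 5 arrays of 1 time, each holding the values of a clock gene, another described gene or a marker list, 6 had an array that stood apart by Dixon's test, which chance gives in about 1 of 20 sets (5%). The Cry1 value of ZT20 replicate 4 was 7.32 where the nearest of the other 3 had 7.61. The Noct value of ZT8 replicate 4 was 9.95 (nearest 10.30), the Hspa1b value of ZT16 replicate 2 was 7.09 (nearest 8.03) and the Cirbp value of ZT8 replicate 3 was 7.05 (nearest 6.39). Among marker lists, T and NK cells averaged 4.97 in ZT20 replicate 3 (nearest 4.78) and B and plasma cells 5.80 in ZT12 replicate 2 (nearest 4.93).

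The 8 genes with the smallest p for a difference in rhythm between the diets of old mice were tested as such in limma. Adjusted p was 2.25e-10 for Hsp90aa1, 1.07e-08 for Ahsa2 and for Tpm3, 1.18e-08 for Hikeshi and 2.17e-08 for Stip1. It was 2.64e-08 for Ube2n and for Memo1 and 3.8e-08 for Hnrnpk. In all 8 the amplitude was larger under restriction.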

How the results depend on the processing

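The count of rhythmic genes (5070) was 3085 in the arrays labelled male and 2510 in those labelled female, labels that sex-linked transcripts did not bear out, 3252 with an amplitude of at least 0.2, and 3802 by the rank test, which shared 3647 of the calls. Rhythm differences between diets (1549) numbered 920 and 101 in these 2 sets, and 710 at an adjusted p under 0.01. The 12 h calls (1414) numbered 456, 62 and 577 under the same settings, and the time-of-day calls (5986) 3532 and 3175 in the 2 sets. Each set has fewer arrays. Omitting 1 array gave 4848 to 5170 rhythmic genes, 1350 to 1619 diet differences, 1116 to 1490 12 h calls and 5677 to 6103 time-of-day calls. Omitting the arrays of 1 replicate number gave 4081 to 4902, 1143 to 1448, 635 to 1447 and 4553 to 5896. The 12 h count was 635, 798, 664 and 893 without the arrays numbered 1, 2, 3 and 4. The count against young restricted mice was 0 in each of these 29 fits. Replicate numbers did not pair the arrays: residuals of same-numbered arrays had a median correlation of 0.000585 and 10 of 55 pairs were over 0.1. With a replicate block there were 4964 rhythmic genes, 1470 diet differences, 0 against young restricted mice, 1329 12 h calls and 5895 time-of-day calls. Of 6496 gene results under alternatives, 251 lost their call and the rest kept their direction and side of the threshold. Counts of lists without ZT4 replicate 2 were added after seeing the data.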

Other observations

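Among genes outside the hepatocyte, several markers with a 24 h rhythm in old restricted liver peaked at different times. Lrat, which stores vitamin A as retinyl esters in stellate cells, had an amplitude of 0.50 (SE 0.096) and a peak at ZT19.7 (adjusted p = 4.78e-05 in limma). Sox9, a transcription factor of cholangiocytes, peaked at ZT20.6 (0.46), and the Kupffer cell gene Vsig4 at ZT22.1 (0.56; adjusted p = 0.00425, and 0.109 without the arrays numbered 3). In the sinusoidal endothelium, Kdr peaked at ZT3.38 (0.22; adjusted p = 0.00469, and 0.0545 without the arrays numbered 3). Alas2, the heme synthesis enzyme of red cell precursors, peaked at ZT3.97 (0.66; adjusted p = 0.0017, and 0.107 without the arrays numbered 2). Cela1, an elastase gene listed as a marker of exocrine pancreas, had an amplitude of 0.93 (SE 0.17), at ZT1.19. These are calls on single genes of whole liver, and the part of cell numbers in them was not tested.

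Among metabolic genes, histidine ammonia-lyase (Hal, 0.69, ZT22.6) and ornithine transcarbamylase (Otc, 0.57, ZT0.372) led the amino acid and urea genes. Srxn1, which repairs oxidised peroxiredoxin, peaked at ZT19.3 (0.53), the mitophagy receptor Bnip3 at ZT9.29 (0.39) and the cytosolic acetyl-CoA hydrolase Acot12 at ZT6.68 (0.50).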
